A study of Homo sapiens with 4 samples.

Results

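The genes described are 10 members of the pericellular proteolysis system, namely the matrix metalloproteinase genes MMP1, MMP7, MMP9, MMP14 and MMP15, the tissue inhibitor genes TIMP1, TIMP2 and TIMP3, the urokinase gene PLAU and its receptor gene PLAUR. They were chosen by name, in a list drawn up with levels and differences from these same arrays already known, so their values are given as a description and no test is made of them. All probe sets that the array annotation pairs with 1 of the 10 genes and with no other were used, which gave 29 of the 49395 probe sets on the array, for 10 of 18132 genes. The groups were HCT116 cells given BORIS siRNA, HCT116 cells given a negative control siRNA, Caco-2 cells given BORIS siRNA and Caco-2 cells given the negative control siRNA, each for 3 days with a lipid transfection reagent. Each group held 1 Affymetrix PrimeView array of total RNA. HCT116 and Caco-2 are established human colorectal cancer cell lines, and BORIS is the protein of CTCFL, a germline paralog of the insulator protein CTCF. Since each group is a single array, differences between siRNAs carry no p-value and could not be checked in replicates; precision is limited by the small number of arrays.

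Matrix metalloproteinases are zinc endopeptidases made as inactive precursors that cleave extracellular matrix and cell surface proteins, and TIMPs are small secreted proteins that block their active site. Urokinase cleaves plasminogen to plasmin, a serine protease that degrades fibrin and can activate several metalloproteinase precursors, and the urokinase receptor, a lipid-anchored surface protein, holds urokinase at the cell edge. In colorectal tumours much of this system is made by stromal cells, while MMP7 is made by the epithelial tumour cells themselves.

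Values are log2 expression per probe set, and the medians of the 4 arrays lay between 5.46 and 5.48. Olfactory receptor genes are mostly silent outside the nose, and the 95th percentile of their 359 probe sets, 5.18 and 5.10 on the HCT116 arrays with BORIS and control siRNA and 4.82 and 5.06 on the Caco-2 arrays, served as the background level of each array. A value at or below it was raised to it before a difference was taken, so that such a difference is a lower bound. CTCFL, the siRNA target, was at background on all arrays at 6 of its 7 probe sets, and the other read 5.09 with BORIS siRNA and 5.07 with control siRNA in Caco-2, so the knockdown could not be measured. CTCF read 8.70 and 9.03 in HCT116 and 9.16 and 9.19 in Caco-2, BORIS siRNA before control. The epithelial markers EPCAM, KRT8, KRT18 and KRT19 lay between 12.10 and 13.79 on the 4 arrays, CDH1 and CDX2 were higher in HCT116 by 1.98 and 1.59, KRT20 was lower there, at 5.72 and 5.43 against 12.04 and 11.59, VIL1 and LGALS4 were above background only in Caco-2, and CDX1 and CDH17 were at background on all arrays. Of 10 fibroblast markers, 10 were at background on all 4 arrays, and PTPRC, which marks leukocytes, was at background on all 4 as well. The log2 of the summed linear level of the fibroblast markers was 7.12 and 7.05 in HCT116 and 6.95 and 7.01 in Caco-2. Of 8 leukocyte markers 4 were at background throughout, and the summed level of the list was 7.45 and 7.27 in HCT116 and 13.15 and 13.29 in Caco-2, where LYZ, a lysozyme gene that gut epithelium also uses, read 13.12 and 13.26. CD68 was above background on all 4 arrays, between 5.46 and 5.96, ITGAM on both Caco-2 arrays and CSF1R on the one with BORIS siRNA. Of 6 endothelial markers 4 were at background throughout, while VWF, between 5.37 and 6.05, and KDR, between 5.36 and 5.42, were above it on all 4 arrays.

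The first comparison set HCT116 against Caco-2. MMP7 was among the bright probe sets in Caco-2 and at background in HCT116, and PLAU lay 8.14-fold higher in HCT116. PLAUR and MMP14 were higher in HCT116 by less than 2-fold, and the other genes differed little or were at background. At 2-fold or more, 1 of the 8 genes above background on at least 1 array was higher in HCT116 and 1 was lower, where 8.4% and 8.66% of 12025 genes were. These counts describe genes whose levels were known when they were listed.

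**Figure D1:**
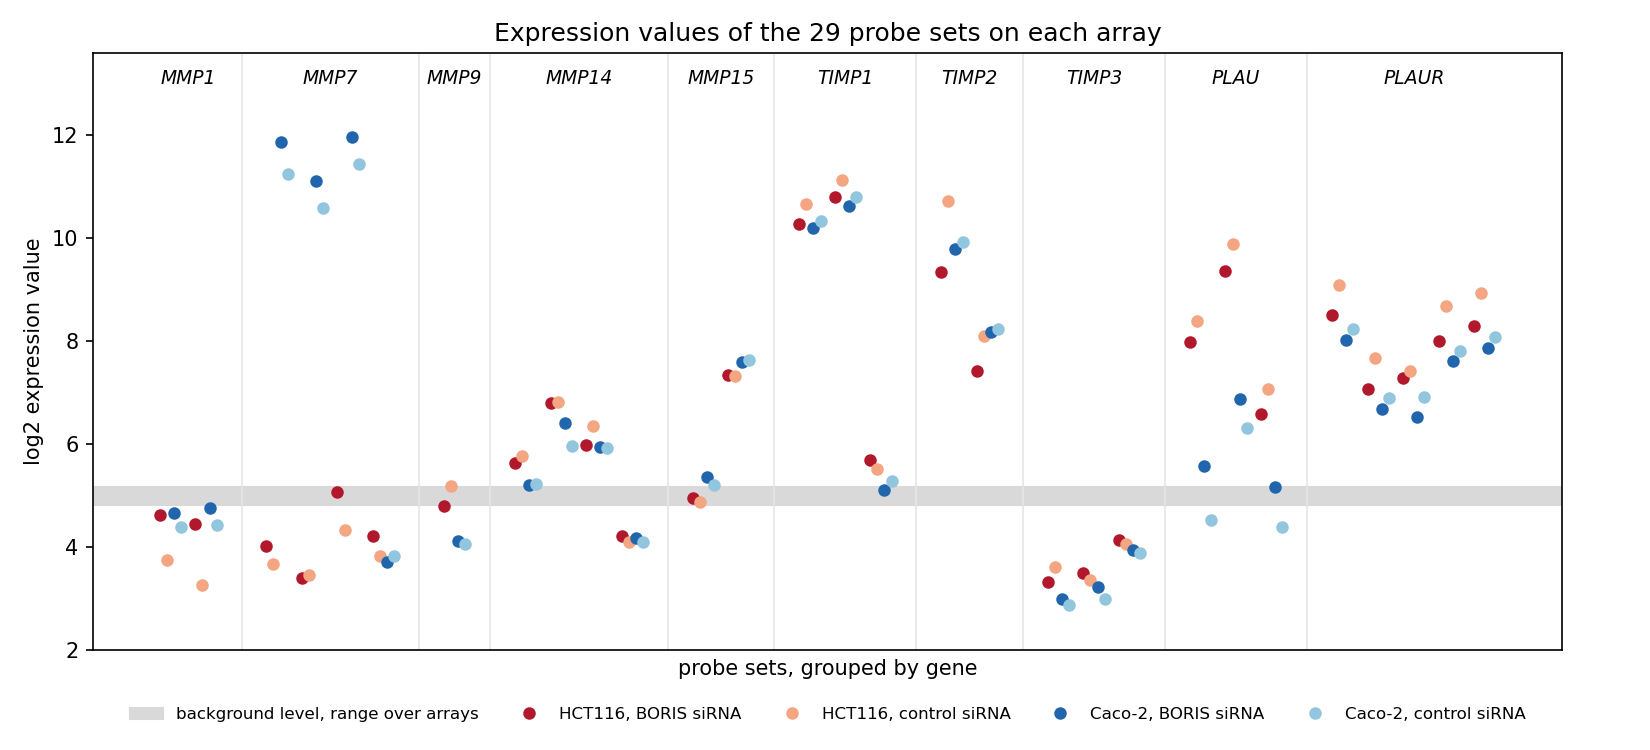
Log2 expression values (vertical axis) of the 29 probe sets, grouped by gene along the horizontal axis, with 1 point per array and the range of the background level in grey. The 2 Caco-2 points of MMP7 reach 11.96 and 11.45 at its brightest probe set while the HCT116 points lie in or under the grey band, and the HCT116 points of PLAU lie above its Caco-2 points.

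Among the secreted metalloproteinases, MMP7 encodes matrilysin, a small enzyme without the hemopexin domain of most family members. Its brightest probe set read 5.08 with BORIS siRNA and 4.35 with control siRNA in HCT116, against 11.96 and 11.45 in Caco-2. Both HCT116 values were under the background level, so MMP7 was at least 94.7-fold lower in HCT116, a log2 difference of -6.57 as a bound. Across all genes above background, 6 of 12025 differed as far in that direction. The next probe sets of MMP7 gave bounds of -6.42 and -5.71, and the fourth was at background on all arrays. The bound was -4.96 when background was set higher, at the 99th percentile of those same olfactory probe sets, and the mean over the 4 probe sets gave -4.33. The poly-A spike-in controls, bacterial RNAs added before labelling, were brighter in HCT116 at 24 of 24 probe sets, by a median of 1.21. The excess of the 3' over the 5' probe set of ACTB, a sign of RNA quality, was 1.47 and 1.34 in HCT116 and 0.97 and 1.05 in Caco-2. The same excess for GAPDH was nearly level, at 0.027 and 0.041 in HCT116 and -0.0048 and 0.026 in Caco-2. The part of the spike-ins and of RNA quality in the line differences was not tested. In such bulk RNA, fewer cells that use a gene and less RNA of it per cell cannot be told apart.

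The promoter of MMP7 is shown because the gene had the largest line difference of the 10. RefSeq promoter sequences of GRCh38.p14, 250 bases before to 50 after the start, covered 7 of the 10 genes in 8 windows of 300 bases. Both strands were searched for TGANTCA, the AP-1 element, CTTTGA, part of the element bound by TCF factors of the WNT pathway, AGGAAG, an ETS element, and AGGNGGC, a core of the motif that CTCF and BORIS share. Capitals mark every match, also where 2 overlap. MMP7 lies on the minus strand at chr11:102530698-102530997.
MMP7: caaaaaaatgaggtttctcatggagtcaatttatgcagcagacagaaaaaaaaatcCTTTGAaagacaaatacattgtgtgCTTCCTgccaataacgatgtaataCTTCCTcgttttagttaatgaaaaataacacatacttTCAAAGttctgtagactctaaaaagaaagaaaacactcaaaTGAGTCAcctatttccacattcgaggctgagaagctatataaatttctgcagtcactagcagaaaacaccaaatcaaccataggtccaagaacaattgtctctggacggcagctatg
It held 1 AP-1 match at position -67 from the start, TCF matches at -194 and -108, and ETS matches at -169 and -145. Of all 35116 promoters, 7.71% held TGANTCA, 12.9% CTTTGA, 33.6% AGGAAG and 35.9% AGGNGGC. Of the 8 windows, 2 held TGANTCA (MMP7 and PLAUR), 1 held CTTTGA (MMP7), 4 held AGGAAG and 5 held AGGNGGC. A match describes the letters and is not a binding site.

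PLAU encodes urokinase, the protease that makes plasmin from plasminogen. Its brightest probe set read 9.38 and 9.88 in HCT116 with BORIS and control siRNA, against 6.89 and 6.32 in Caco-2. The lines did not overlap, and their difference of 3.03 on the log2 scale was larger than the gaps between siRNAs of 0.51 in HCT116 and 0.57 in Caco-2. It was 2.48 with BORIS siRNA and 3.57 with control siRNA. The second probe set read 7.99 and 8.39 in HCT116 and 5.58 and 4.54 in Caco-2, a difference of at least 2.87, and the other read 6.59 and 7.08 against 5.18 and 4.40, at least 1.72. Of all genes, 0.956% lay as far on the higher side as PLAU. The promoter is shown at the downstream of its 2 starts, on the plus strand at chr10:73910882-73911181.
PLAU: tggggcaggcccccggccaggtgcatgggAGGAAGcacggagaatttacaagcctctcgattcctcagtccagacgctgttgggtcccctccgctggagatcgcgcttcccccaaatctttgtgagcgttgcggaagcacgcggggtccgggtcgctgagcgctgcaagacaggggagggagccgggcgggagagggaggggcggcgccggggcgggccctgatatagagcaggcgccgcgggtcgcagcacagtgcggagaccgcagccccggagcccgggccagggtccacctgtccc
It held 1 AGGAAG match at -221 and none of the other motifs, and the window at the upstream start held none of the 4.

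PLAUR encodes the urokinase receptor. Its brightest probe set read 8.51 and 9.09 in HCT116, against 8.03 and 8.25 in Caco-2, so both HCT116 arrays were above both Caco-2 arrays. The difference was 0.66, and over the 5 probe sets, several of which come from the same transcript, it ran between 0.58 and 0.66. With 15.1% of all genes as far on the higher side, PLAUR was not far out among line differences. Its promoter, on the minus strand at chr19:43670120-43670419, is the other that held an AP-1 match.
PLAUR: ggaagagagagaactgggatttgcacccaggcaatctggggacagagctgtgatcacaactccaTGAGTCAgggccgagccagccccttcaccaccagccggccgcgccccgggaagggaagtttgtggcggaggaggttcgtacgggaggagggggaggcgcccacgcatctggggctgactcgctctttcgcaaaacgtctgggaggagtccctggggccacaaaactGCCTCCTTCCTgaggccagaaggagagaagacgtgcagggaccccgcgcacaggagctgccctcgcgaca
The AP-1 match stood at -186, and an ETS match at -15 overlapped a match of the CTCF core at -20.

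MMP14 and MMP15 encode membrane-anchored metalloproteinases, of which MMP14 activates the MMP2 precursor in a complex with TIMP2. The brightest probe set of MMP14 read 6.81 and 6.82 in HCT116 and 6.41 and 5.96 in Caco-2, a difference of 0.63. Its next probe sets differed by 0.48 and 0.24, and the fourth was at background. MMP15 was lower in HCT116, at 7.34 on both arrays, against 7.59 and 7.64 in Caco-2, a difference of -0.28. Its second probe set was at background in HCT116 and gave a bound of -0.15.

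MMP9, a gelatinase that neutrophils and macrophages make in quantity, read 4.80 and 5.20 in HCT116 and 4.12 and 4.07 in Caco-2. Only the HCT116 control array passed its background level, of 5.10. With the other values raised to background, the line difference of 0.25 is mostly one of background levels and is not read as a level of MMP9, although MMP9 stays among the 8 genes counted. MMP1, the interstitial collagenase, was at background at both its probe sets on all 4 arrays. It read 4.63 and 3.76 in HCT116 and 4.67 and 4.40 in Caco-2 at the brighter one.

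The inhibitors did not follow MMP7 or PLAU. TIMP1, a secreted inhibitor of most metalloproteinases, read 10.80 and 11.14 in HCT116 and 10.63 and 10.80 in Caco-2, a difference of 0.25. TIMP2, which also takes part in MMP2 activation, read 9.35 and 10.72 in HCT116 and 9.79 and 9.92 in Caco-2. The Caco-2 values lay between the HCT116 values, and the line difference was -0.44 with BORIS siRNA and 0.80 with control siRNA. The second probe set of TIMP2 read 7.43 and 8.10 in HCT116, both under the 8.18 and 8.25 in Caco-2. TIMP3, an inhibitor that binds to the matrix, was at background at all 3 probe sets on all arrays, with 4.14 and 4.06 in HCT116 and 3.95 and 3.89 in Caco-2 at the brightest.

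**Figure D2:**
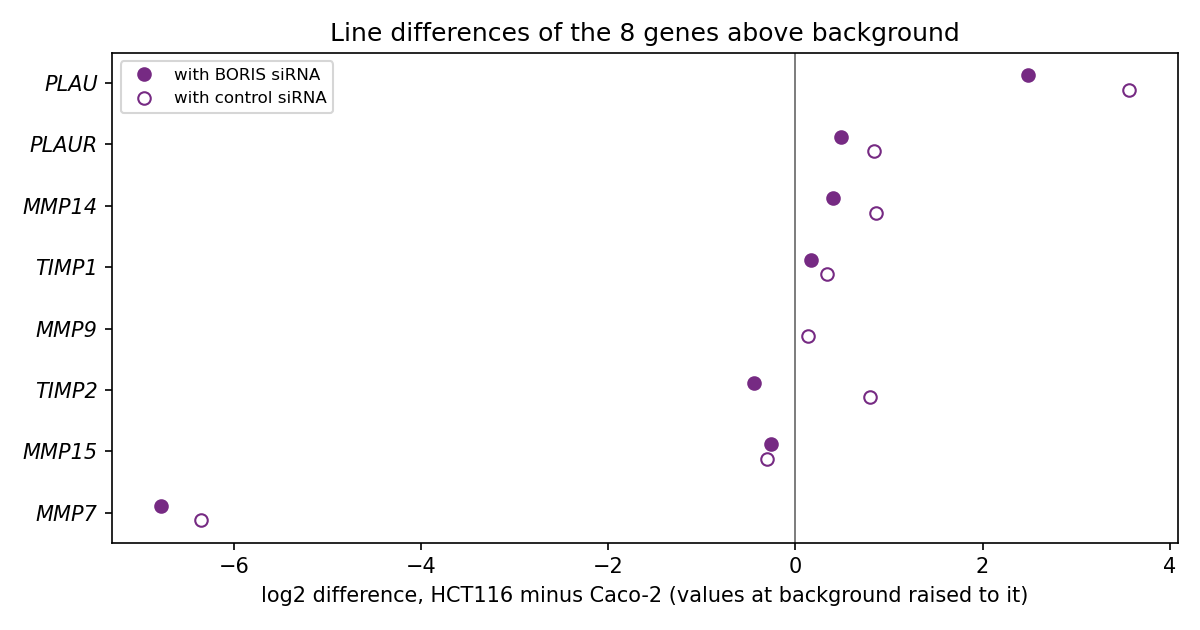
Line differences (horizontal axis, log2, HCT116 minus Caco-2, values at background raised to it) of the 8 genes above background on at least 1 array, 1 gene per row, with filled points for the arrays with BORIS siRNA and open points for those with control siRNA. MMP7 stands at -6.78 and -6.35 and PLAU at 2.48 and 3.57, the points of TIMP2 fall on opposite sides of 0, and MMP9 has no point with BORIS siRNA, where both arrays were at background.

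The second comparison set BORIS siRNA against control siRNA in HCT116. TIMP2 was 2.59-fold lower, a log2 difference of -1.37, and PLAU, PLAUR and TIMP1 were lower by less than 2-fold. Of 7 genes above background on at least 1 of the arrays, 1 was lower at 2-fold or more and 0 were higher, where 1.23% and 0.477% of 11319 genes were. MMP9, over background on the control array alone, is among the 7. The median of the 7 was -0.34 and that of all genes -0.037. On the array with BORIS siRNA, 24 of 24 poly-A spike-in probe sets were brighter than on its control array, by a median of 0.88, and 18 of 18 hybridisation controls by a median of 0.39. Their part in these differences was not tested.

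For TIMP2 the 9.35 with BORIS siRNA stood against 10.72 with control siRNA, and 20 of 11319 genes were lower by as much. The probe set is of the _s_at kind, which can bind related transcripts. The other TIMP2 probe set read 7.43 and 8.10, a difference of -0.66, so both were lower and only the first by 2-fold. TIMP1 read 10.80 and 11.14 at its brightest probe set, a difference of -0.34, and 10.29 and 10.67 at the next, -0.39. Its dim remaining probe set read 5.69 and 5.51 and went the other way, by 0.18.

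PLAUR read 8.51 with BORIS siRNA and 9.09 with control siRNA, a difference of -0.58, with 8.54% of all genes as low or lower. It was lower at 5 of 5 probe sets, between -0.68 and -0.13. PLAU read 9.38 and 9.88, a difference of -0.51 reached by 11.7% of genes, and was lower at 3 of 3 probe sets, between -0.51 and -0.40. Receptor and protease thus lay in the lower part of the distribution, within the range that many genes covered between these 2 arrays.

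The membrane-type metalloproteinases were nearly level in HCT116. MMP14 read 6.81 and 6.82, a difference of -0.01, and its next probe sets differed by -0.13 and -0.37. MMP15 read 7.34 on both arrays, and its second probe set was at background on both. MMP7, MMP1 and TIMP3 were at background on both arrays and have no difference.

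**Figure D3:**
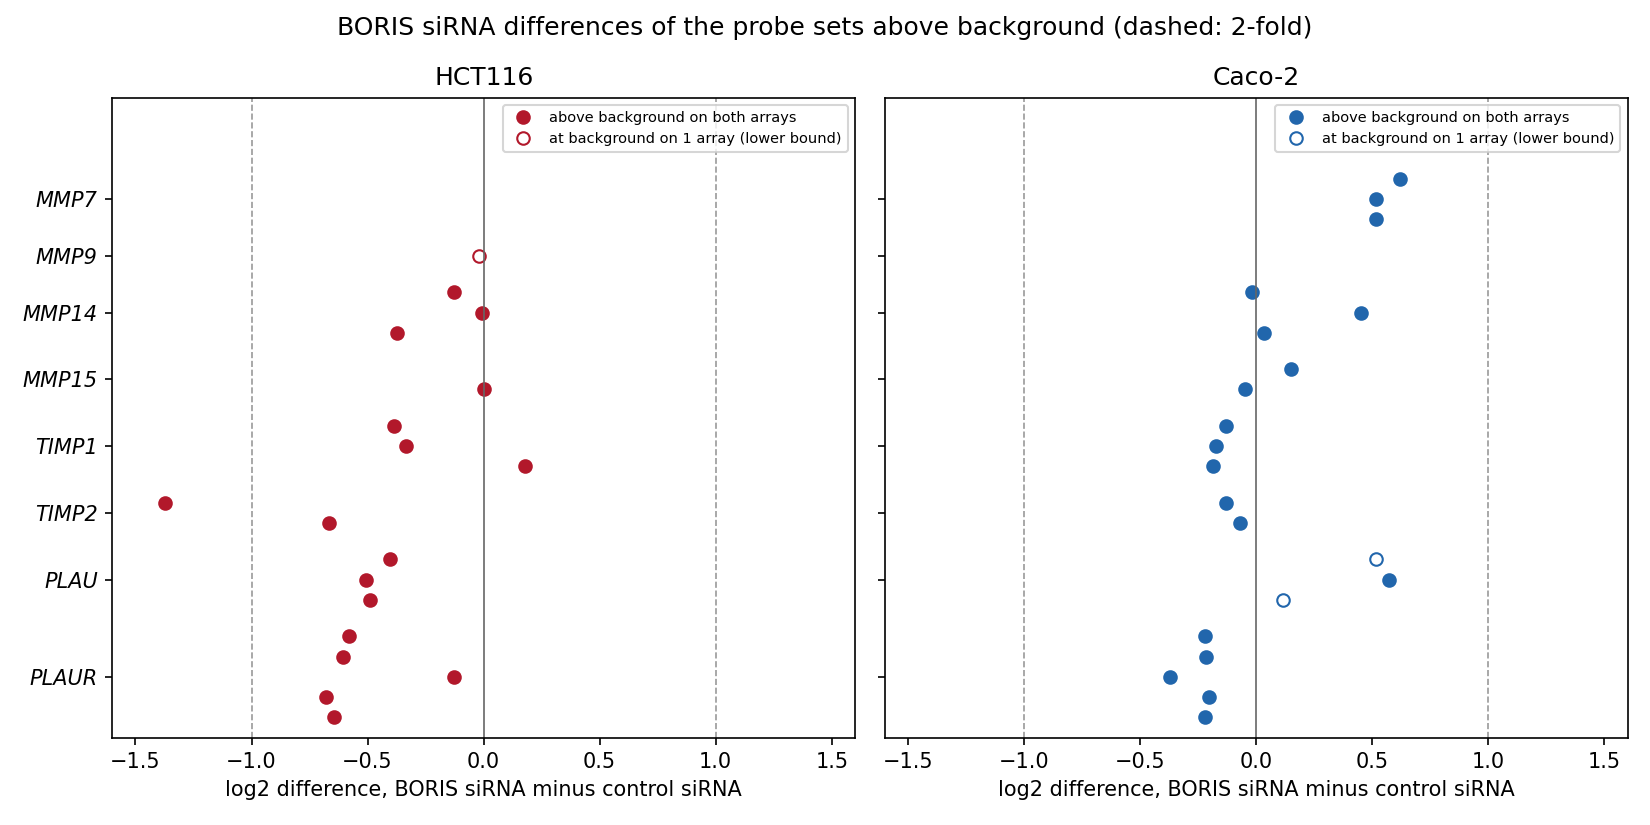
Log2 differences (horizontal axis, BORIS siRNA minus control siRNA) of the probe sets above background, grouped by gene, in HCT116 at the left and Caco-2 at the right; open points are lower bounds and dashed lines mark 2-fold. In HCT116 the 3 PLAU points lie between -0.51 and -0.40 and 1 TIMP2 point passes 2-fold, and in Caco-2 the PLAU and MMP7 points lie to the right of 0.

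The same comparison in Caco-2 gave other signs for several genes. PLAU was higher by 0.57, MMP7 by 0.51 and 1 probe set of MMP14 by 0.45, and PLAUR and both expressed TIMPs lay between -0.22 and -0.13. None of the 7 genes above background reached 2-fold in either direction, where 0.254% of 11438 genes were higher and 0.035% lower by as much. The median of the 7 was -0.046 and that of all genes -0.0085. The poly-A spike-in probe sets differed by a median of -0.08 between these arrays.

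MMP7 read 11.96 with BORIS siRNA and 11.45 with control siRNA at its brightest probe set, 11.87 and 11.25 at the second, a difference of 0.62, and 11.11 and 10.59 at the dimmest of these, 0.51. All 3 were higher, and 3.58% of genes lay as far on that side as the first. PLAU read 6.89 and 6.32, and 2.58% of genes were as high or higher. Its other probe sets were at background with control siRNA and higher by at least 0.52 and at least 0.11. With background at the 99th percentile the PLAU difference shrank to 0.08, because the control value of 6.32 then fell under it.

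MMP14 read 6.41 and 5.96 at its brightest probe set, while its next probe sets differed by -0.02 and 0.03. The 3 probe sets therefore did not move together. MMP15 read 7.59 and 7.64, a difference of -0.05. Its dim second probe set read 5.36 and 5.22 and went the other way, by 0.15. PLAUR read 8.03 and 8.25, a difference of -0.22, and its 5 probe sets lay between -0.37 and -0.21. TIMP1 read 10.63 and 10.80, a difference of -0.17, and TIMP2 9.79 and 9.92, a difference of -0.13.

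Set side by side, the lines gave PLAU opposite signs, -0.51 in HCT116 and 0.57 in Caco-2, and PLAUR the same sign, -0.58 and -0.22. TIMP2 stood at -1.37 and -0.13, and TIMP1 at -0.34 and -0.17. With 1 array per group, the difference between the lines was not tested for any gene.

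**Figure D4:**
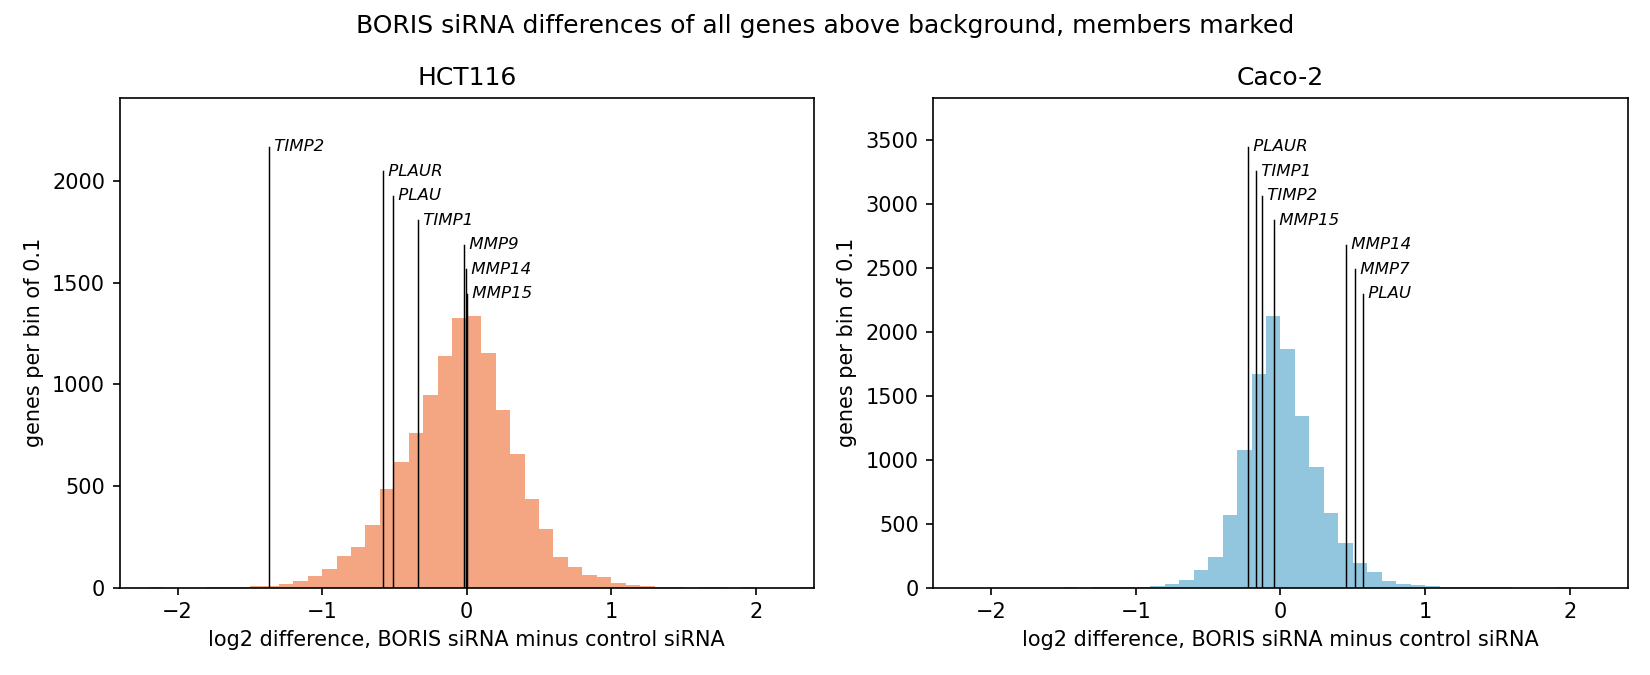
Histograms of the log2 difference (horizontal axis, BORIS siRNA minus control siRNA) of all genes above background, 11319 in HCT116 at the left and 11438 in Caco-2 at the right, in bins of 0.1, with a line for each of the 7 listed genes measured in that line. TIMP2 lies in the lower tail in HCT116 at -1.37, and PLAU, MMP7 and MMP14 lie on the upper side in Caco-2 at 0.57, 0.51 and 0.45.

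Other genes of the same system were taken from 6 lists of 91 genes, of which 88 had a probe set of their own. The others were not analysed here. Of the 88, 26 were at background on all arrays. The difference between HCT116 and Caco-2 was tested for 58 of them in a limma fit over 11165 genes, with siRNA as a block and a Benjamini-Hochberg adjusted p under 0.05. There were 13 higher and 16 lower in HCT116, or 22.4% and 27.6%, and 29 that did not pass, where 19.4% and 19.8% of all genes were called. The lists were drawn up with earlier results of these data known, so these counts are a description and not an independent test. Over all genes 2161 were called higher and 2212 lower, against 1329 and 1453 without the Caco-2 control array and 1384 and 1295 without the Caco-2 BORIS array, in fits that also dropped the siRNA block and assumed the lone Caco-2 array to vary like the HCT116 arrays. Of the 29 called genes, 3 had both arrays of 1 line at background, namely PLAT, TIMP4 and RUNX2, the last named after its values were seen. They entered the test only through the other line, so they are in the counts but their calls are not read as tests. The median difference of the 58 was -0.05 and that of all tested genes 0.014. The arrays of a line differ in siRNA and the fit had 1 residual degree of freedom.

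In the plasminogen system, 5 of 13 tested genes were higher in HCT116, 5 were lower and 3 did not pass. Over all genes 19.4% were called higher and 19.8% lower, which also stands beside the counts of the lists that follow. PLAT, the tissue-type plasminogen activator gene, read 7.91 and 8.49 in HCT116 and was at background in Caco-2, at 4.01 and 4.33, so it was higher by at least 3.26. The difference of the values as measured was 4.02. Since PLAT entered the limma fit only through HCT116, its call there is not read as a test. PLGRKT, a plasminogen receptor gene, was higher by 2.75 with a standard error of 0.18 (limma adjusted p = 9.09e-05), at 9.31 and 8.86 against 6.62 and 6.04. SERPINE2, a protease inhibitor that can block both activators, was higher by 2.50, at 11.37 and 11.46 against 9.14 and 8.68 (limma adjusted p = 0.00017). S100A10, which binds plasminogen on the cell surface together with ANXA2, differed by -1.42, at 11.31 and 11.82 against 12.74 and 13.23 (limma adjusted p = 0.000119). For each of the 4 genes both HCT116 arrays lay on 1 side of both Caco-2 arrays. These genes were named for the largest line differences of their list, so this separation follows from the choice. The share of all genes that separated in this way was not counted. Between siRNAs, SERPINA5, an inhibitor of urokinase and protein C, read 5.16 and 6.29 in HCT116, a difference of -1.12 or further down, against 6.70 and 6.66 in Caco-2. ST14, the gene of the membrane protease matriptase, which can activate urokinase, stood at -0.75 in HCT116 and 0.08 in Caco-2.

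Of 17 other metalloproteinase genes 11 were at background on all arrays, and of the 5 tested 0 passed the limma test between the lines, and 1 of the 5, MMP24, had an unadjusted p under 0.05. MMP24 differed by -0.46 (limma adjusted p = 0.0949) and MMP17 by 0.50 (limma adjusted p = 0.13). MMP2, the gelatinase that MMP14 activates, differed by 0.01 between the lines, and by 0.46 in HCT116 and -0.27 in Caco-2 between siRNAs. Of 6 other inhibitors 5 were at background, and TIMP4 was above it only in Caco-2, at 6.12 and 6.30 against 4.14 and 4.48 in HCT116, so it was lower in HCT116, with a bound of -1.07. On the values as measured the difference was -1.90. TIMP4 entered the limma fit only through Caco-2, so its call is not read as a test.

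Among 16 tested activators, inducers and docking partners, 3 were higher and 6 lower in HCT116, and 7 did not pass. The proprotein convertase genes PCSK6 and PCSK5 differed by -1.92 and -1.51 on the values as measured, the PCSK6 value including 1 array at background (limma adjusted p = 0.00274 and 0.00159). LCN2, whose product lipocalin binds MMP9, differed by -1.69 (limma adjusted p = 0.000849), and the kallikrein gene KLK10 was higher by 1.43 (limma adjusted p = 0.00151). Between siRNAs, the cytokine gene TGFB1 stood at -0.98 in HCT116 and 0.04 in Caco-2, the matrix protein gene THBS1 at -0.87 and 0.17, and the chemokine gene CXCL8 at -0.69 and 0.71.

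Of 16 AP-1, ETS and EGR transcription factor genes, 3 were higher in HCT116, 4 lower and 9 did not pass. RUNX2, 1 of the 3, was at background on both Caco-2 arrays, so its call is not read as a test. ETS2 differed by -2.48, FOS by -2.33 and JUN by -1.88 (limma adjusted p = 0.000113, 0.000366 and 0.00132), and ATF3 was higher by 1.42 (limma adjusted p = 0.00439). With BORIS siRNA, 15 of the 16 were lower in HCT116, with a median of -0.54, where 54.3% of all genes were lower and the poly-A spike-ins were brighter by a median of 0.88. Their part in this was not tested. Of the 16, 2 were lower at 2-fold or more, ETS1 at -1.42 and EGR1 at -1.09, where 1.23% of all genes were. That the immediate early genes among them were lower there was known before the list was made, so this count is a description. In Caco-2, 8 of the 15 measured were higher and 7 lower, where 48.3% and 51.6% of all genes were. Of 7 tested ADAM and ADAMTS genes, 2 were higher in HCT116 and 5 did not pass: ADAM19 was higher by 1.05 and ADAM17, the sheddase that TIMP3 inhibits, by 0.99 (limma adjusted p = 0.00886 and 0.013). ADAM15 stood at 0.56 in HCT116 and 0.82 in Caco-2 between siRNAs.

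The genes most like PLAU and TIMP2 over the 4 arrays were found among 11164 other expressed genes, by the Euclidean distance between log2 values centred on each gene's mean. PLAU had the largest line difference and TIMP2 the largest siRNA difference of the 6 genes above background on all arrays. The nearest to PLAU were TRIB2 at a distance of 0.10, MEF2C at 0.19 and UST at 0.29. TRIB2 read 7.63 and 8.11 in HCT116 and 5.24 and 4.65 in Caco-2. MEF2C and UST were at background on both Caco-2 arrays and TRIB2 on the one with control siRNA, so their distances rest in part on values that are not above background. The nearest to TIMP2 were FAM168B at 0.14, with 9.46 and 10.68 in HCT116 and 9.81 and 10.06 in Caco-2, BCAR3 and CLEC16A, both at 0.26. The distance describes 4 arrays and carries no p-value.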

How the data were processed

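Total RNA was amplified and biotin-labelled from its 3' end and hybridised to Affymetrix PrimeView arrays, per the labels' protocols. The deposited values are log2 expression per probe set, read from their range of 2.13 to 14.17; how background, normalization and summarisation were handled is not given in the sources used, and the quartiles of the 4 arrays lay within 0.129. Probe sets were named from GEO's platform annotation: 44988 carried 1 gene, 1832 several and 2473 were unlisted. Of several probe sets of a gene, the one with the highest mean over the 4 arrays stands for it. The genes and lists were chosen with earlier results of these data known, and the motifs likewise. The test between lines used lmFit and eBayes with trend from limma 3.58.1 (R 4.3.3), with siRNA as a block, for genes at or above the array median on at least 1 array, after a test on simulated data. In each list, at most 4 genes were named for their line difference and at most 4 for their siRNA difference, the largest first. Promoters are RefSeq's of GRCh38.p14. Alternatives were other probe set choices, background levels, thresholds and normalizations, and leaving out each array.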

Additional observations from a re-analysis of the deposited data

Results flagged for a closer look

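In several genes the difference between BORIS siRNA and control siRNA had opposite signs in the lines. Each value here is the HCT116 difference minus the Caco-2 difference, as log2. The difference was not tested, since each group holds 1 array. Among the listed genes it was -1.08 for PLAU, -0.46 for MMP14 and 0.048 for MMP15. The opposite signs did not hold for MMP14, whose HCT116 difference of -0.01 was 0.08 after quantile normalization, or for MMP15, whose Caco-2 difference of -0.05 was 0.05 as the mean of its probe sets. The Caco-2 difference of PLAU kept its sign but fell to 0.08 with background at the 99th percentile. Among activators and inducers it was -1.40 for CXCL8, -1.04 for THBS1, -1.02 for TGFB1 and -0.75 for KLK6. For the transcription factor genes ETS1 and ELF3 it was -1.50 and -0.84. For the membrane proteases ST14 and HPN it was -0.84 and 0.65. For the other metalloproteinase genes MMP2, MMP28 and MMP11 it was 0.73, 0.26 and 0.24, and for ADAM17 it was -0.67. The other genes were drawn from those with the largest siRNA differences of their lists. The share of all genes with opposite signs was not counted, so the number of genes named here has no comparison. Over all genes, 45.6% were higher with BORIS siRNA in HCT116 and 48.3% in Caco-2. Many of the opposite signs rest on 1 small value. For ETS1, ELF3, TGFB1, ST14, ADAM17 and MMP11 the Caco-2 difference was smaller than the median absolute difference of all genes there, 0.153. For KLK6, HPN, MMP28 and MMP11 the HCT116 difference was smaller than that in HCT116, 0.237. MMP2 read between 5.14 and 5.60 on the 4 arrays, near their background levels. The siRNA differences of these other genes were not run under the alternatives.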

How the results depend on the processing

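Of 144 values of the listed genes under the alternatives, 127 moved by less than the spread used, 17 moved further and 0 turned a called sign. For siRNA differences the spread was the standard deviation over all genes, 0.38 in HCT116 and 0.26 in Caco-2, which small differences could hardly exceed. For line differences it was that gene's spread within lines, which holds the siRNA effect and was 0.69 for TIMP2. A turned sign was counted only where the main difference was 2-fold or more. Alternatives under which a gene was at background on all arrays compared gave no value and are not among the 144. This befell MMP14 in Caco-2, and MMP9 in HCT116 and between the lines. Once probe sets ending in _x_at or _s_at were dropped, 0 listed genes reached 2-fold between siRNAs in HCT116, TIMP2 then standing at -0.66. At a threshold of 1.5-fold, 4 of the listed genes passed between the lines, the added ones being MMP14 and PLAUR. The share of all genes at 1.5-fold is not given here, so this count has no comparison. On the higher side, 15.1% of all genes lay as far as PLAUR, and more lay as far as MMP14. The sign was not kept for MMP15 in Caco-2, between -0.10 and 0.05, for MMP14 in HCT116, between -0.10 and 0.08, and for TIMP2 between the lines, between -0.44 and 0.80. The line difference of MMP14 ran from 0.12 to 0.86, and its Caco-2 difference was 0.13 as the mean of its probe sets. The 0.12 is a lower bound, from background at the 99th percentile, where both Caco-2 values were raised to it. Of the other pathway genes, between 10 and 17 were higher in HCT116 and between 13 and 20 lower when 1 array was left out. Over all genes limma then called 1329 higher and 1453 lower without the Caco-2 control array, 1384 and 1295 without the Caco-2 BORIS array, 2468 and 2845 without the HCT116 control array and 2471 and 2338 without the HCT116 BORIS array, against 2161 and 2212. These fits had no siRNA block, and with all 4 arrays and no block the calls were 2121 and 2153. The lines were paired by siRNA in the block, and no pairing by replicate number was possible because the labels carry none.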
